A study of Mus musculus with 16 samples.

Results

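A set of 10 genes known from macrophages and from colony-stimulating factor 1 signalling were followed through sorted cells of embryonic mouse skin: Csf1, Csf1r, Sfpi1, Tyrobp, Fcer1g, Laptm5, Lyz2, Cx3cr1, Emr1 and C1qa. They were chosen by symbol, and all 10 have 1 row each among the 23235 rows of the deposited expression table. RNA was measured in 16 libraries of skin from mouse embryos at embryonic day 14.5, separated by fluorescence-activated cell sorting into 8 fractions with 2 libraries each. The labels give short names only. From general knowledge of embryonic skin, Pc is read here as placode and Epi as the epidermis around it. In the same way, Fb is read as fibroblasts, DC as dermal condensate, Sch as Schwann cells, DCSch as a fraction with both of the last, Mc as melanocytes, and Neg as the cells negative for the sort markers. All fractions share the tissue and the age. The sources used here give no strain, genotype or sort marker, and any gene the sort relied on would differ between fractions by construction. Whether the 2 libraries of a fraction came from different litters is not labelled, and the p-values below therefore measure only the spread between these libraries, which may be technical.

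Csf1 encodes a secreted growth factor that binds the receptor tyrosine kinase encoded by Csf1r, and most tissue macrophages need this signal to survive. Il34 encodes the other ligand of the same receptor and is known for maintaining Langerhans cells of the epidermis and microglia of the brain. In embryonic skin the first macrophages are known to come from the yolk sac and fetal liver. Macrophages also read their surroundings through surface receptors that signal by small adaptor proteins, among them those encoded by Tyrobp and Fcer1g, and the transcription factor PU.1, encoded by Sfpi1, is required for the lineage. Several of these genes are not restricted to macrophages: Sfpi1, Tyrobp, Fcer1g, Laptm5 and Lyz2 are also known from mast cells, granulocytes or natural killer cells, whereas Csf1r, Emr1 and the C1q genes are more narrowly tied to macrophages.

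The name "macrophage genes" was only partly borne out. Tyrobp, Fcer1g, Laptm5, Lyz2, Sfpi1 and Cx3cr1 were higher in Neg than in every other fraction, with Tyrobp and Fcer1g above 58 FPKM. FPKM are fragments scaled by the length of the transcript and by the fragments of the library, so that levels of different genes can be compared per length. Csf1r, Emr1 and C1qa reached 3.82, 0.946 and 0.925 FPKM at most in any library. The genes are therefore called by their names below rather than by a cell type. In bulk RNA, fewer cells of a type and less RNA per cell cannot be told apart.

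The labels of the fractions were set beside 5 marker genes each for skin cell types. These lists were chosen with earlier results of these data known and may hold genes the sort relied on, so the match is a description. All 5 epidermal markers were highest in Pc or Epi, for example Krt5, at 1649 and 1136 FPKM in Pc. The 5 fibroblast markers were highest in Fb, the 5 condensate markers in DC, the 5 Schwann cell markers in Sch and the 5 melanocyte markers in Mc. Neg held the highest levels of all 10 erythroid genes, of all 8 skeletal muscle genes and of 9 of 10 endothelial genes, so it is a mixture. Total FPKM per library ran from 439201 in Sch replicate 1 to 606437 in Epi replicate 1. The file gives no read counts, so the depth behind each value is unknown. The low values of replicate 1 and replicate 2 libraries have a different texture. In Neg replicate 2, the values per kilobase pile up at a step, with 10.7 times the typical number of values at 0.127 FPKM × kb, and in Neg replicate 1 the same ratio was 2.50. The difference was smaller in Epi, at 5.5 in replicate 2 and 3.25 in replicate 1, and in Mc, at 4 and 3.

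The promoters of 3 genes are shown because their genes separate into different fractions: Csf1, highest in Fb, and Fcer1g and Lyz2, highest in Neg. The sequences are RefSeq's on GRCm38.p6 (mm10), and entries matched 5 of the 10 genes. Each runs 5′ to 3′ on the strand of its gene from 250 bases before the start, and ends before the first annotated exon base. All 3 genes lie on the minus strand. Capitals mark the letters AGGAAG or their reverse complement CTTCCT, which hold the core GGAA that PU.1 and other ETS factors are known to bind. The shorter core is not marked where it stands outside these letters, as it does in the Csf1 stretch.
Csf1 promoter, chr3:107760470-107760719: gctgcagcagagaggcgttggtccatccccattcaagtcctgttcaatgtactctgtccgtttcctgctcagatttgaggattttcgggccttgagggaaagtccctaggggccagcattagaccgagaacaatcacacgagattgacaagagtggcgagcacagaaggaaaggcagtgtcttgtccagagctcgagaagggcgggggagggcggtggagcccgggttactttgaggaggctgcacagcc
Fcer1g promoter, chr1:171234366-171234599: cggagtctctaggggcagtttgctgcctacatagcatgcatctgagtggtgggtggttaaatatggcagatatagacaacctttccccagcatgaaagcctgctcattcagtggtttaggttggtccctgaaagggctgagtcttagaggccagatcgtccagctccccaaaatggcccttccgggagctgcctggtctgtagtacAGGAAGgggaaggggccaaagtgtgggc
Lyz2 promoter, chr10:117282322-117282522: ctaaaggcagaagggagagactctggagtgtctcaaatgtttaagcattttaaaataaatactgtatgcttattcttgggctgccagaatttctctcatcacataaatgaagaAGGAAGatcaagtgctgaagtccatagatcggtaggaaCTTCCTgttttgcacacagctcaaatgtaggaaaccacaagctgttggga
In the full windows of 300 bases, AGGAAG on either strand was found in 3 of the 5 matched genes, Fcer1g, Lyz2 and Laptm5, and 35.4% of all 32851 promoters hold it. Fcer1g has it 44 bases before the start, and another match begins 5 bases before the start, beyond the printed stretch. Lyz2 has AGGAAG 137 and CTTCCT 99 bases before the start. Laptm5 has matches 233 and 39 bases before the start. The longer letters GAGGAAGT, which fit the PU.1 preference more closely, are in none of the 5 windows and in 3.20% of all promoters. A match of letters describes the sequence only and is no evidence of binding.

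**Figure D1:**
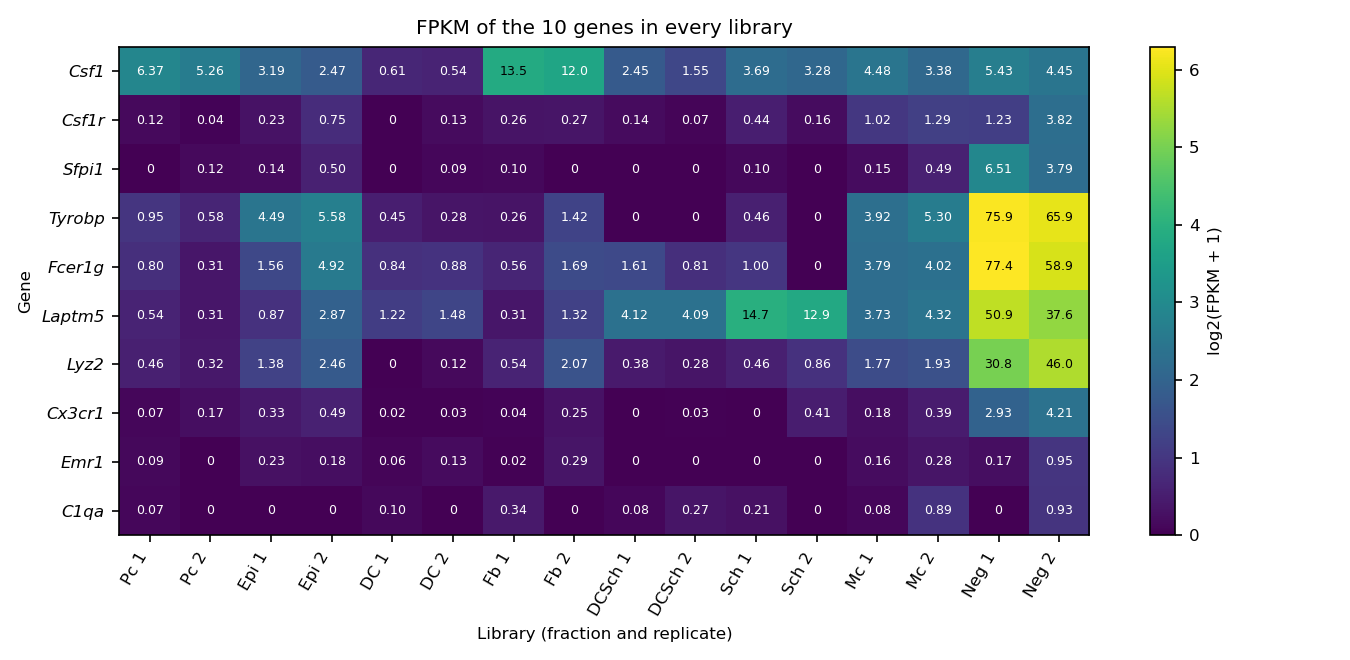
FPKM of the 10 genes (rows) in each of the 16 libraries (columns); colour gives log2(FPKM + 1) and the printed numbers are FPKM, with 0 where a gene is listed at 0. Tyrobp, Fcer1g, Laptm5 and Lyz2 are between 30.8 and 77.4 FPKM in Neg, Csf1 is brightest in Fb, and Emr1 and C1qa stay below 1 FPKM in every library.

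The ligand gene Csf1 (mm10, chr3:107741048-107760469) was the only gene of the 8 tested that was highest outside Neg. It measured 13.5 and 11.96 FPKM in Fb, 6.37 and 5.26 in Pc, and 5.43 and 4.45 in Neg. The levels in Mc were 4.48 and 3.38 FPKM, those in Sch 3.69 and 3.28, and those in Epi 3.19 and 2.47. It was lowest in DCSch, at 2.45 and 1.55 FPKM, and in DC, at 0.608 and 0.540. Both Fb libraries lay above the other 14, and both DC libraries lay below the other 14. Differences were tested with limma on log2(FPKM + 1) in 1 fit over all 16 libraries, and a gene was called at a Benjamini-Hochberg adjusted p under 0.05 with a log2 difference of at least 1. All log2 differences below are on this scale, which understates the change of genes with low FPKM.

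Csf1 was called higher in Fb than in each of the other 7 fractions. The largest of these differences was to DC, where Csf1 was lower by a log2 difference of -3.12 (SE 0.23, limma adjusted p = 2.37e-06). DC minus Fb had 9.20% of the 14171 tested rows called lower. The same share was 13.7% for Pc minus Fb, 14% for Epi minus Fb and 7.71% for Neg minus Fb, and the share called higher was 4.52% for Fb minus DCSch, 8.68% for Fb minus Sch and 11.8% for Fb minus Mc. The smallest difference was Fb over Pc, at 1.012 (SE 0.23, adjusted p = 0.00476). That call sits at the fold threshold: it was lost without Pc replicate 2 (0.89), without Fb replicate 1 (0.93), after quantile normalization (0.91), and when only the 4 libraries compared were fitted (adjusted p = 0.0598). The mean order was Fb, Pc, Neg, Mc, Sch, Epi, DCSch and DC. From Pc down to DCSch, no neighbours in that order differed by the call rule: the adjusted p-values were 0.641 for Pc over Neg, 0.520 for Neg over Mc, 0.812 for Mc over Sch, 0.518 for Sch over Epi, and 0.265 for Epi over DCSch. DCSch exceeded DC by 0.91 (adjusted p = 0.0282), which is below the fold threshold. It was called without DCSch replicate 2 (1.13), and also with a pseudocount of 0.1 (1.61).

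Among the dermal fractions, Fb and DC stood at opposite ends of the Csf1 range. Csf1 exceeded its level in DC by a log2 difference of 2.11 in Pc (limma adjusted p = 1.62e-05, with 13.3% of rows called higher), 1.28 in Epi (adjusted p = 0.000758, 14.1%) and 1.91 in Neg (adjusted p = 4.28e-05, 13.9%). DC minus Sch was -1.51 (adjusted p = 0.000319, with 10.3% of rows called lower) and DC minus Mc was -1.64 (adjusted p = 0.000157, 10.9%). Neg itself was lower than Fb, by -1.21 (adjusted p = 0.00207). These comparisons share their DC or Fb libraries and are not independent of each other.

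Il34 was also highest in Fb, at much lower levels, but its lowest mean was in Sch rather than in DC. It measured 1.99 and 1.13 FPKM in Fb, 0.793 and 0.898 in Epi, and 0.607 and 0.475 in DCSch. In the 10 libraries of the other 5 fractions it lay between 0 (Sch replicate 1) and 0.311 FPKM (Mc replicate 1). Both Fb libraries lay above both Epi libraries. Il34 was called higher in Fb than in Pc, DC, Sch, Mc and Neg. Its log2 difference was -1.13 for DC minus Fb (SE 0.18, adjusted p = 0.000599), and that call was lost without Fb replicate 1 (-0.89) and when only the 4 libraries compared were fitted. Fb over Epi was 0.45 (adjusted p = 0.0718) and was not called. On the FPKM scale, the mean of Csf1 in Fb was 12.7 ± 1.06 (SD, n = 2) and that of Il34 was 1.56 ± 0.607.

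The receptor gene Csf1r had its highest values in Neg, but they were low and unequal. Csf1r measured 1.23 FPKM in Neg replicate 1 and 3.82 in Neg replicate 2. It measured 1.02 and 1.29 FPKM in Mc, 0.228 and 0.750 in Epi, 0.443 and 0.159 in Sch, and 0.262 and 0.273 in Fb. It lay at or below 0.136 FPKM in Pc, DC and DCSch, and was listed at 0 in DC replicate 1. Neg replicate 1 lay between the 2 Mc libraries, so Neg and Mc overlapped, while both fractions lay above the other 12 libraries.

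Csf1r was called higher in Neg than in 6 fractions. The differences ran from 1.16 over Epi (SE 0.30, adjusted p = 0.0102) to 1.62 over DC (SE 0.30, adjusted p = 0.00111). The call over Epi was lost without Neg replicate 2 (0.61), without Epi replicate 1 (0.91), after quantile normalization (0.99), and when only the 4 libraries compared were fitted. Without Neg replicate 2, the differences over Fb and over Sch also fell below the fold threshold. Over Mc the difference was 0.61 (SE 0.30, adjusted p = 0.209), and it passed the call rule without Neg replicate 1 (1.16). Mc in turn was called higher than Pc (1.001, adjusted p = 0.0303, with 9.07% of rows) and DC (1.02, adjusted p = 0.0214, with 10.9%), and each of these calls was lost when either library of either of its 2 fractions was left out, with values between 0.91 and 1.11.

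**Figure D2:**
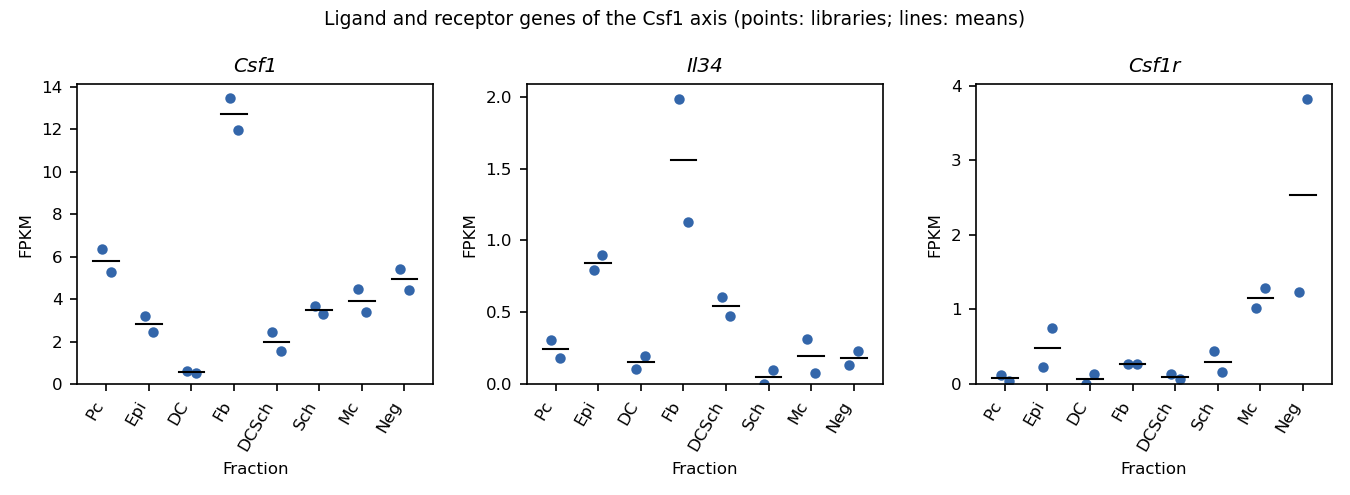
FPKM of the ligand genes Csf1 and Il34 and of the receptor gene Csf1r by fraction; points are libraries, lines are means of 2, and each panel has its own linear axis from 0. Csf1 is 11.96 to 13.5 FPKM in Fb and 0.540 to 0.608 in DC, and the 2 Csf1r points of Neg lie at 1.23 and 3.82 FPKM.

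The adaptor genes were the most abundant of the 10 in Neg. Tyrobp (chr7:30413788-30417579) encodes DAP12, which passes signals from receptors such as Trem2 through an immunoreceptor tyrosine-based activation motif. It measured 75.9 and 65.9 FPKM in Neg. In the other 14 libraries it ranged from 0, in 3 libraries, to 5.58 FPKM in Epi replicate 2, with a median of 0.518. The Neg mean was 14.1-fold the next highest mean, that of Epi. The smallest log2 difference of Neg was 3.58 over Epi (SE 0.31, adjusted p = 3.04e-06).

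Fcer1g (chr1:171229572-171234349), whose promoter is printed above, encodes the common gamma chain of Fc receptors and part of the IgE receptor of mast cells. It measured 77.4 and 58.9 FPKM in Neg. In the other 14 libraries it ranged from 0, in Sch replicate 2, to 4.92 FPKM in Epi replicate 2, with a median of 0.940. The Neg mean was 17.5-fold that of Mc, the next highest. The smallest difference of Neg was 3.81 over Mc (SE 0.44, adjusted p = 4.32e-05). For both adaptor genes no library outside Neg came within a factor of 10 of a Neg library.

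A list of 14 genes held the adaptors and surface receptors of blood cells. Not all of these receptors signal through the adaptors, among them the inhibitory receptor encoded by Sirpa. Of the 14 genes, 9 did not reach 1 FPKM in 2 libraries. Of the 5 tested, Fcer1g, Tyrobp and Fcgr3 were called above all other fractions in Neg. Fcgr3, an Fc receptor for IgG that pairs with the gamma chain, measured 4.22 and 4.53 FPKM in Neg and at most 0.689 elsewhere, so it entered the test through Neg alone. Trem2, a DAP12-coupled receptor of macrophages, was listed at 0 in 14 of the 16 libraries, and measured 0.131 FPKM in Neg replicate 2 and 0.378 in Mc replicate 1. Ms4a2, the beta chain of the IgE receptor of mast cells, measured 4.69 and 7.51 FPKM in Neg, while its alpha chain gene Fcer1a was listed at 0 and at 0.141 FPKM there.

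Sfpi1 (chr2:91096797-91115756) encodes PU.1. It measured 6.51 and 3.79 FPKM in Neg. In the other 14 libraries it was listed at 0 in 6 and reached at most 0.501 FPKM, in Epi replicate 2. Its smallest difference of Neg was 2.20 over Epi (SE 0.22, adjusted p = 9.44e-06). Sfpi1 and Cx3cr1 reached the filter of 1 FPKM in 2 libraries through Neg alone, so their calls follow in part from the filter. Among 12 blood transcription factor genes, 11 were tested and 5 were called above all other fractions: Ikzf1, Sfpi1, Lyl1, Fli1 and Nfe2. Of these 5, 4 entered the test through Neg alone, all but Fli1, and the list's count was 2 with a filter of 5 FPKM. Ikzf1, which encodes the lymphoid and myeloid regulator Ikaros, measured 29.3 and 29.2 FPKM in Neg and at most 0.613 elsewhere. Others of the list were highest outside Neg, among them Cebpa in Epi, Cebpb and Runx1 in DC, Irf5 in DCSch, and Maf in Fb. Runx1, a transcription factor of blood stem cells and of hair follicles, measured 13.2 and 17.3 FPKM in DC against 4.45 and 4.64 in Neg.

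Laptm5 (chr4:130913334-130936148) encodes a lysosomal membrane protein of blood cells, and was also found in Sch. It measured 50.9 and 37.6 FPKM in Neg and 14.7 and 12.9 in Sch. It measured 4.12 and 4.09 FPKM in DCSch and 3.73 and 4.32 in Mc. In Epi it was at 0.870 and 2.87 FPKM, in DC at 1.22 and 1.48, in Fb at 0.311 and 1.32, and in Pc at 0.542 and 0.311. Both Sch libraries lay below both Neg libraries and above all others. Neg exceeded Sch by 1.60 (SE 0.35, adjusted p = 0.00498), a call that was lost with a pseudocount of 0.1 (adjusted p = 0.0653).

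Among the fractions other than Neg, Laptm5 was called higher in Sch than in each of the other 6, with 11.9% of rows so called against Pc, 12.5% against Epi and 6.72% against Fb. DC minus Sch was -2.65 (SE 0.35, adjusted p = 0.000107), and 10.3% of all rows were called lower. Mc minus Sch was -1.56 (SE 0.35, adjusted p = 0.00858), with 7.31% of rows called lower, and it was lost without Sch replicate 1 or Mc replicate 1. DCSch minus Sch was -1.53 (SE 0.35, adjusted p = 0.0123), with 3.56% called lower, and it was lost without any 1 of the 4 libraries of these fractions. Both calls were also lost with a pseudocount of 0.1. DCSch exceeded DC by 1.12 (adjusted p = 0.0797), which was not called (4.41% of rows were), while with the replicate number as a block the adjusted p was 0.0298 and Laptm5 was called. Of the other pan-leukocyte genes, Evi2a had its highest mean outside Neg in Sch, at 10.4 and 11.6 FPKM against 12.5 and 25.5 in Neg. Unlike Laptm5, it was broadly present. Its mean was 57.8% of that in Neg in Sch, and 23.1% (Epi) to 41.6% (DCSch) in the other 6 fractions. Ptprc, Cd53 and Coro1a measured at most 0.800 FPKM in Sch, Lcp1 at most 1.42 and Cd52 at most 1.51. Sch libraries held Tyrobp at 0.456 FPKM and 0.

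Lyz2 (chr10:117277541-117282272) encodes the lysozyme of macrophages and granulocytes. It measured 30.8 and 46.0 FPKM in Neg. In the other 14 libraries it ranged from 0, in DC replicate 1, to 2.46 FPKM in Epi replicate 2, with a median of 0.498. The smallest difference of Neg was 3.75 over Epi (SE 0.32, adjusted p = 2.93e-06). Lyz1, the neighbouring lysozyme gene of Paneth cells, measured 2.13 and 5.57 FPKM in Neg and at most 0.412 elsewhere. Lyz2 and Lyz1 share 425 of 447 bases of their reading frames, 95.1%, so reads may have been split between them and the Lyz1 value is uncertain. Of 13 lysosome and phagocyte enzyme genes tested, 5 were called above all other fractions, namely Lyz2, Lyz1, Ncf4, Ctss and Cybb, and 3 of these (Lyz1, Ncf4 and Cybb) entered the test through Neg alone. General lysosomal genes such as Ctsc, highest in Epi, and Grn and Lgmn, highest in Mc, were not among them.

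Cx3cr1 (chr9:120048683-120068296) encodes the receptor for fractalkine, the product of Cx3cl1. It measured 2.93 and 4.21 FPKM in Neg. In the other 14 libraries it was listed at 0 in 2 and reached at most 0.491 FPKM, in Epi replicate 2. Its smallest difference of Neg was 1.68 over Epi (SE 0.20, adjusted p = 3.46e-05). Its ligand gene was found elsewhere. Cx3cl1 measured 10.8 and 8.28 FPKM in Epi, 8.17 and 5.34 in Pc, and 2.41 and 1.21 in Neg, and was below 1 FPKM in the other 10 libraries. Both epidermal fractions lay above all other libraries. Cx3cl1 was lower in Neg than in Epi by -1.93 (SE 0.32, adjusted p = 0.000554, with 8.75% of rows) and lower than in Pc by -1.47 (adjusted p = 0.00412, with 7.45%), and it was higher in Neg than in DC by 1.35 (adjusted p = 0.00616). Ccr2, the monocyte receptor for Ccl2, measured 2.35 and 4.96 FPKM in Neg and at most 0.199 elsewhere, while Ccl2 was highest in Fb, at 4.51 and 7.17 FPKM.

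Emr1 and C1qa were too low to be tested. Emr1 (chr17:57358686-57483529), which encodes the macrophage surface protein F4/80, measured 0.167 and 0.946 FPKM in Neg and at most 0.288 elsewhere, and was listed at 0 in 5 libraries. C1qa (chr4:136895916-136898844), a subunit gene of complement C1q, was listed at 0 in Neg replicate 1 and measured 0.925 FPKM in Neg replicate 2. Its next highest value was 0.894 FPKM, in Mc replicate 2. Its partner subunits showed the same unevenness. C1qb measured 0.403 and 7.31 FPKM in Neg, 1.91 and 2.93 in Mc, and 0.729 and 2.64 in Epi. C1qc measured 1.001 and 3.14 FPKM in Neg and 0.857 and 1.48 in Mc. Neither C1qb nor C1qc was called higher in Neg than in Mc, with log2 differences of 0.01 (adjusted p = 0.997) and 0.42 (adjusted p = 0.471).

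In counts, 8 of the 10 genes passed the filter and 6 of them were called higher in Neg than in each of the other 7 fractions. Over all tested rows that share was 520 of 14171, 3.67%. Against single fractions, 7 of the 8 were called higher in Neg than in Pc, where 13.1% of rows were, and 7 than in Epi, where 13.3% were. All 8 tested were called higher than in DC, with 13.9% of rows, 7 than in Fb, with 7.77%, 7 than in DCSch, with 8.65%, 7 than in Sch, with 9.43%, and 6 than in Mc, with 9.98%. These 7 comparisons share the Neg libraries. In Fb, Csf1 was called the other way, and 7.71% of rows were lower in Neg there. Of all rows, 10.2% were called lower in Neg than in DC, 7.16% than in Sch and 5.72% than in Mc, and no member was among them. The members were proposed with earlier results of these data known, so the counts describe them and nothing more.

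**Figure D3:**
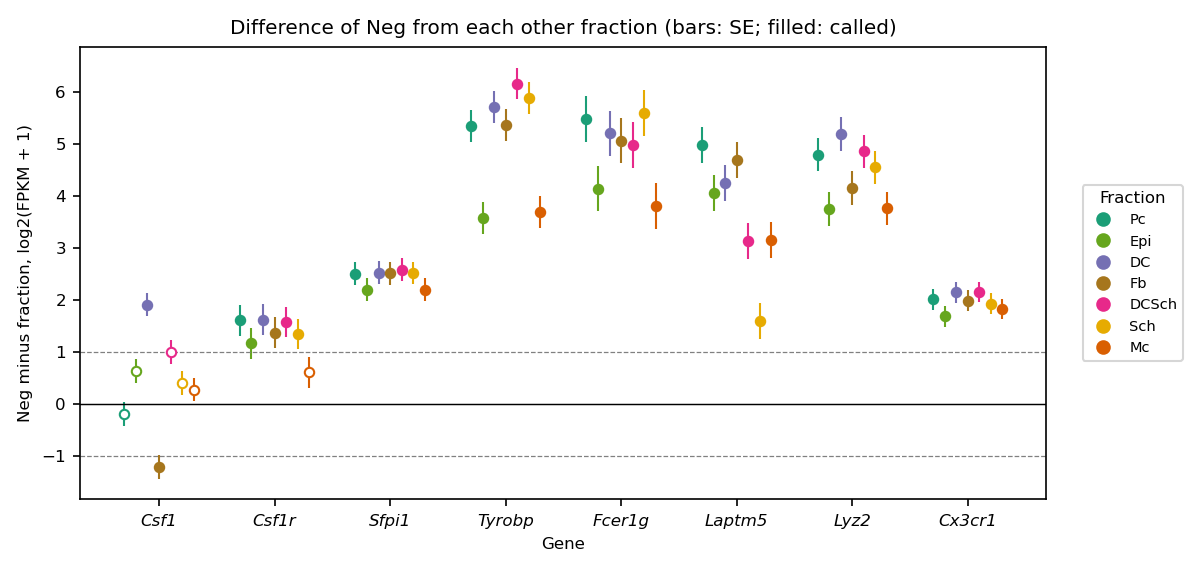
Log2 difference of Neg from each of the other 7 fractions for the 8 tested genes, on log2(FPKM + 1); bars are SE, filled points passed the call rule, and dashed lines mark a log2 difference of 1 in either direction. Tyrobp, Fcer1g and Lyz2 lie above 3.5 in all 7 comparisons, Laptm5 is lowest against Sch at 1.60, Csf1r is not called against Mc at 0.61, and Csf1 is -1.21 against Fb.

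Genes of several other blood cells rose in Neg together with the 6. Of 12 mast cell genes 9 were tested and 8 were called above all other fractions, led by Cpa3, a mast cell protease gene at 603 and 905 FPKM, and Cma1, a chymase gene at 251 and 228 FPKM. Of 12 granulocyte genes 8 were tested and 6 were called, among them S100a8, a neutrophil calcium-binding protein gene at 76.9 and 62.6 FPKM, and Mpo, the myeloperoxidase gene at 11.4 and 11.3 FPKM. Of 12 pan-leukocyte genes 10 were called, led by Coro1a at 62.3 and 24.7 FPKM. Of the genes called, 4 of the 8 mast cell, 4 of the 6 granulocyte and 5 of the 10 pan-leukocyte genes entered the test through Neg alone, so these counts describe the lists only. Summed over the whole mast cell list, Neg reached 1288 and 1433 FPKM against 3.88 to 525 in the other libraries, where the top values are those of Mc through Kit, which melanocytes share. Granulocyte genes summed to 238 and 153 FPKM in Neg against 0.259 to 20.4. Mcpt4, Fcer1a and Mrgprb2 of the mast cell list were below 1 FPKM in both Neg libraries. The part of mast cells and granulocytes in the Neg levels of Tyrobp, Fcer1g, Laptm5, Lyz2 and Sfpi1 was not tested.

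Resident macrophage genes were a smaller and less even group. Of 26 listed, 16 were tested and 4 were called above all other fractions: Stab1, Lyve1, Cx3cr1 and Mpeg1, of which Cx3cr1 and Mpeg1 entered the test through Neg alone. The count was 8 without Neg replicate 1 and 2 without Neg replicate 2. Stab1 and Lyve1 encode scavenger and hyaluronan receptors that endothelium also expresses, and endothelial genes such as Cdh5, at 133 and 91.9 FPKM, were high in the same libraries. Of 10 endothelial genes, 1 was higher in Neg replicate 2 than in replicate 1, with a median ratio of 0.670. Lyve1 measured 6.86 and 16.2 FPKM in Neg. The part of endothelium in the Neg levels of Stab1 and Lyve1 was not tested. Mrc1, the mannose receptor gene of tissue macrophages, measured 3.82 and 15.8 FPKM in Neg and 1.80 and 3.67 in Mc, and was called over 6 fractions but not over Mc (1.31, SE 0.48, adjusted p = 0.0847). With the replicate number as a block, Mrc1 was called over Mc as well (adjusted p = 0.0120). The list summed to 49.6 and 111 FPKM in Neg against 9.66 to 72.9 in the others. Some genes of the list, picked after their values were seen, were below 1 FPKM in both Neg libraries. Cd163 was listed at 0 and at 0.109 FPKM, Siglec1 at 0.0703 and 0.112, Timd4 at 0 and 0.702, and Ms4a7 at 0 in both. Of the 15 genes that reached a mean of 1 FPKM in some fraction, 11 had their highest mean in Neg, among them Pf4, Lyve1 and Mrc1. In the other 4 the highest mean was outside Neg: Aif1 in Pc, P2ry12 in Sch, and Tmem119 and Mertk in Fb.

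The 2 Neg libraries differed in their balance of blood cell genes. Csf1r was 3.11-fold higher in Neg replicate 2. Of 14 resident macrophage genes with a Neg mean of at least 1 FPKM, 11 were higher in replicate 2, and the median ratio of replicate 2 to replicate 1 was 1.90. Mast cell genes were higher in replicate 2 in 3 of 9, with a median ratio of 0.866, and granulocyte genes in 2 of 10, with a median of 0.666. Over all 12203 rows with such a mean, 51.8% were higher in replicate 2 and the median ratio was 1.02. The members split in the same way: Lyz2, Cx3cr1 and Csf1r were higher in replicate 2, and Sfpi1, Laptm5, Fcer1g, Tyrobp and Csf1 were higher in replicate 1. With 2 libraries this difference has no test. A rise in replicate 2 was also seen outside Neg. Mrc1 was higher in replicate 2 in every other fraction but Pc, for example 1.80 and 3.67 FPKM in Mc. Lyve1 was higher in replicate 2 in every other fraction but Sch. Csf1r was higher in replicate 2 in Epi and Mc, and lower in Sch. Same-numbered libraries deviated together in all 28 pairs of fractions (median r = 0.49). The part of the replicate number in the Neg difference was not tested.

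**Figure D4:**
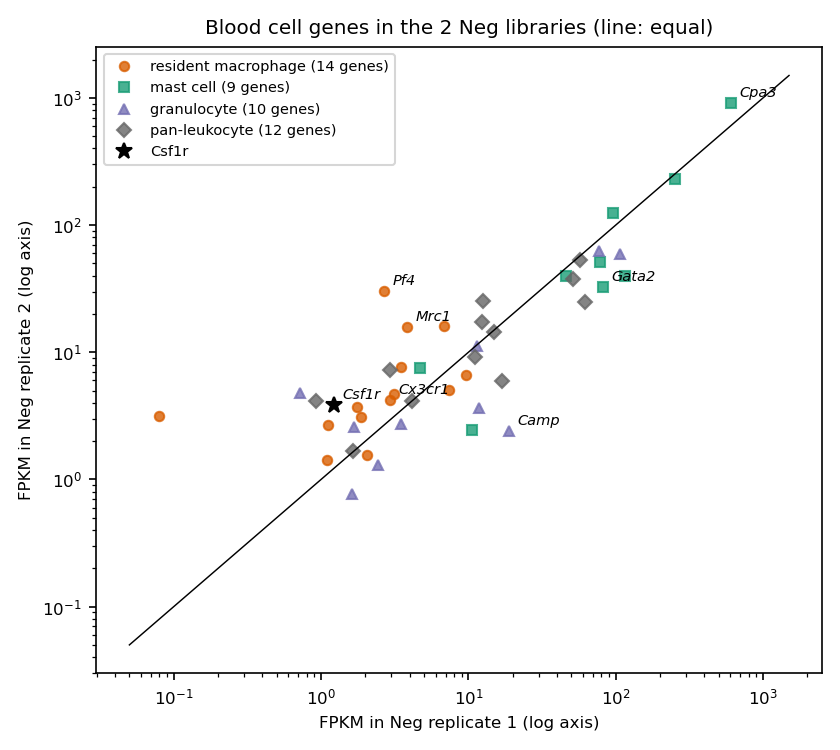
FPKM in Neg replicate 1 against Neg replicate 2 on log axes for genes of 4 blood cell lists with a Neg mean of at least 1 FPKM, and for Csf1r; the line marks equal values. Resident macrophage genes lie mostly above the line (11 of 14) and granulocyte genes mostly below it (8 of 10), with Csf1r at 1.23 and 3.82 FPKM.

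Low values of the Neg genes in the other fractions were not spread evenly. Relative to the Neg mean, Tyrobp stood at 7.10% in Epi and 6.50% in Mc, but at 0.322% in Sch. Fcer1g stood at 4.75% in Epi and 5.73% in Mc, and Lyz2 at 5.00% and 4.82%. Csf1r stood at 19.3% in Epi and 45.8% in Mc. These Csf1r shares rest on the Neg libraries: without Neg replicate 2 they were 39.7% and 94.0%. Tyrobp was called higher in Epi than in Fb (1.79, SE 0.31, adjusted p = 0.000681, with 10.5% of rows called) and higher in Mc than in Sch (2.21, SE 0.31, adjusted p = 0.000296, with 4.53% called). Fcer1g was also called higher in Mc than in Sch (1.79, SE 0.44, adjusted p = 0.0145), a call lost without Sch replicate 2, Mc replicate 1 or Mc replicate 2. Without Epi replicate 1, 3 of the genes rather than 1 were called higher in Epi than in Fb.

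Between the epidermal fractions, Tyrobp was lower in Pc than in Epi, by -1.78 (SE 0.31, adjusted p = 0.0136), and 1.37% of rows were called lower there. Tyrobp was at 0.945 and 0.580 FPKM in Pc, against 4.49 and 5.58 in Epi. The call was lost without Pc replicate 2, Epi replicate 1 or Epi replicate 2, with a pseudocount of 0.1 (adjusted p = 0.217), and when only the 4 libraries compared were fitted (adjusted p = 0.125). With the replicate number as a block, Lyz2 was called lower in Pc as well (adjusted p = 0.0358, against 0.193 without the block), so that the count was 2. Melanocyte genes were also lower in Pc than in Epi: Dct, at 3522 and 2407 FPKM in Mc, measured 92.8 and 132 FPKM in Epi and 18.4 and 15.6 in Pc. Tyrobp itself stood at 6.50% of its Neg mean in Mc and 7.10% in Epi. The part of melanocytes in the Epi level of Tyrobp was not tested. In the dermis, Lyz2 was lower in DC than in Fb by -1.04 (SE 0.32, adjusted p = 0.0382), and the call was lost in 9 of the 16 fits that each left out 1 library, among them that without Fb replicate 2 (-0.54).

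Outside Neg, the low levels of resident macrophage genes were larger shares of their Neg levels than those of mast cell genes in each of the 7 fractions, and the resident macrophage shares were highest in Mc and Epi. Among listed genes with a Neg mean of at least 1 FPKM, the median share of the Neg level in Mc was 27.7% for resident macrophage genes and 5.34% for pan-leukocyte genes. It was 0.179% for mast cell genes, 0.391% for granulocyte genes, 0.328% for erythroid genes and 3.10% for endothelial genes. Lists with higher medians in Mc included platelet genes (45.1%), lysosome and phagocyte enzymes (51.2%) and complement genes (62.7%). These lists are not independent of macrophage genes. The platelet median is the value of Pf4, which is also on the resident macrophage list, and the complement median is that of C1qb. The lysosome list also holds general genes highest in Mc, such as Grn and Lgmn. Whether high shares are particular to resident macrophage genes therefore cannot be read from these medians. In Epi the medians were 18.6% for resident macrophage genes, 4.35% for pan-leukocyte genes and 0.718% for mast cell genes. They were 37.4% for Langerhans and dendritic cell genes, 43.8% for complement genes and 63.2% for lysosome and phagocyte enzymes. In the other 5 fractions the median lay between 4.70% (Pc) and 8.99% (Fb) for resident macrophage genes, and between 0.179% (DCSch) and 1.02% (Fb) for mast cell genes. Pf4, known from platelets and from fetal macrophages, stood at 45.1% of its Neg mean in Mc, Mrc1 at 27.9%, C1qb at 62.7% and C1qc at 56.4%. Cpa3 stood at 0.224% and Hbb-y, an embryonic globin gene, at 0.200%. These shares are descriptions with no test, and the resident macrophage values carry the spread between the 2 Neg libraries given above.

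Ratios of genes to Tyrobp within a library, set against those in Neg, restate the shares above by library. They are not independent of those shares. Per length, Csf1r was 26.1% and 24.4% of Tyrobp in Mc, 5.07% and 13.5% in Epi, and 1.62% and 5.80% in Neg. Pf4 was 159% and 161% of Tyrobp in Mc, 73.4% and 105% in Epi, and 3.53% and 45.7% in Neg. Cpa3 was 49.5% and 27.2% of Tyrobp in Mc, 55.2% and 45.4% in Epi, and 794% and 1374% in Neg. Both Mc libraries lay above both Neg libraries for Csf1r and Pf4 and below both for Cpa3. The ratio for Fcer1g varied less, from 34.6% in Epi replicate 1 to 102% in Neg replicate 1.

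**Figure D5:**
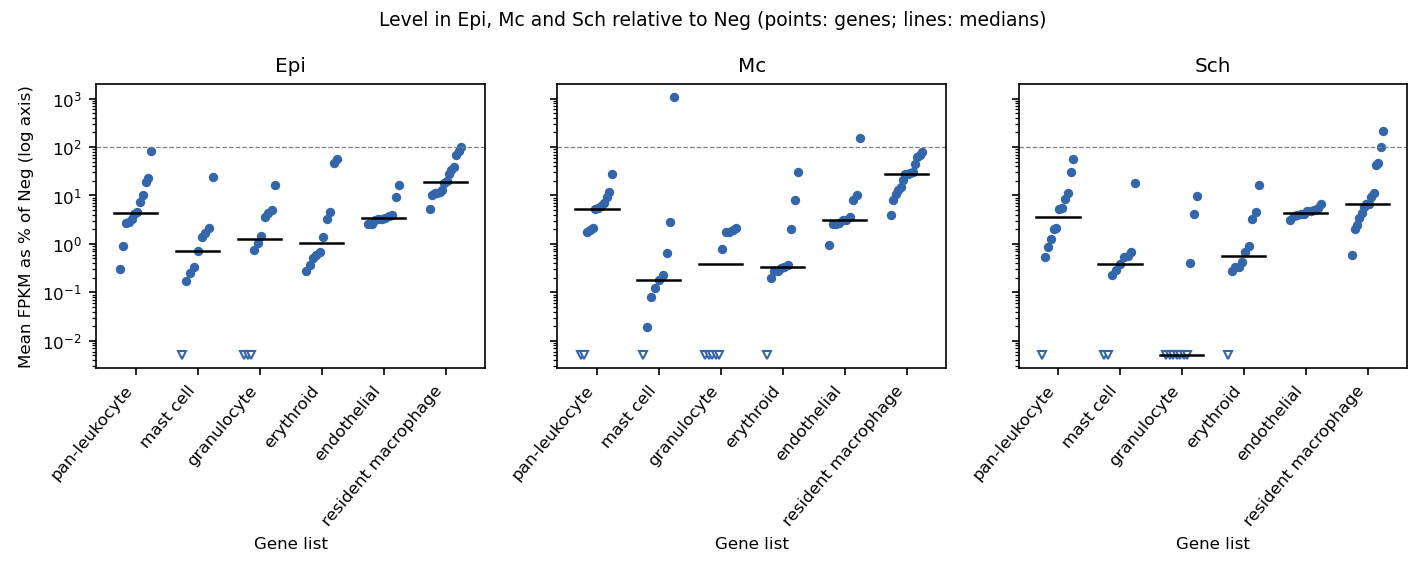
Mean FPKM in Epi, Mc and Sch as a percent of the Neg mean (log axis) for genes of 6 lists with a Neg mean of at least 1 FPKM; points are genes, lines are medians, the dashed line is 100%, and open triangles at the foot are genes below the axis, mostly listed at 0. In Mc the resident macrophage median is 27.7% and the mast cell median 0.179%, and the point far above the dashed line is Kit.

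The rows most like Csf1r in pattern were sought among 11204 genes with a mean of at least 5 FPKM in some fraction, by Pearson's r of log2(FPKM + 1) over the 16 libraries. They were Mrc1 (r = 0.96), Ctss (0.94), Lyve1 (0.91), Fndc3c1 (0.89) and Zbtb18 (0.88). Lyz2 ranked sixth at 0.87, Tyrobp had r = 0.86 and Fcer1g 0.86. Mrc1 and Lyve1 encode surface receptors of tissue macrophages, and Ctss encodes a lysosomal protease of antigen-presenting cells. Over the 14 libraries other than Neg, none of these 5 stayed among the 5 most like Csf1r, and Fig4, Mitf, Syt4, Cpeb1 and Mc1r took their place. Mitf and Mc1r are melanocyte genes, at 141 and 56.6 FPKM in Mc. Of the 5 named genes, 2 stayed without Neg replicate 1, 1 without Neg replicate 2 and 3 without Mc replicate 2, and 3 with a pseudocount of 0.1.

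The rows most like Csf1 were Ankrd27 (r = 0.93), Rpn2 (0.92), Anapc5 (0.91), Fzd7 (0.90) and Rpn1 (0.89). All 5 were highest in Fb and lowest in DC, as Csf1 was. Rpn1 and Rpn2 encode ribophorins of the endoplasmic reticulum. Rpn2 measured 155 and 143 FPKM in Fb and 64.9 and 45.7 in DC. The likeness is a description across libraries that share fractions, and depends on the libraries and the scale used: 2 of the 5 stayed among the most like without Fb replicate 2, and 3 stayed without Epi replicate 2, DC replicate 1, Fb replicate 1 or Neg replicate 2. After rescaling to the same total 2 of the 5 stayed, and 3 with a pseudocount of 0.1.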

How the data were processed

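The authors deposited 1 table of FPKM values for 16 libraries, made with TopHat2 2.0.3, Bowtie2 and Cufflinks 2.1.1 on mm10, per the submitters' processing notes. The notes give these tools no role or setting, and say nothing of a scaling between libraries. Per the labels' protocols, 6 ng of RNA (integrity number 8.8 or higher) was amplified to cDNA before library preparation.

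Columns were matched to samples by title, and 0 columns were left over. Values were moved to log2(FPKM + 1). A model with 1 mean per fraction and a trended, robust spread was run in limma 3.58.1 (R 4.3.3) over the 14171 rows that reached 1 FPKM in 2 or more libraries. P-values were adjusted over all rows by the Benjamini-Hochberg method. The limma code was tested on simulated data. Same-numbered libraries deviated together in all 28 pairs of fractions (r from 0.15 to 0.66, median 0.49), which is where the pairing of replicate numbers comes from, and a fit with the number as a block was an alternative.

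The genes and the lists were chosen with earlier results of these data known. Genes named are the 10, Il34, up to 5 per list with the largest difference of Neg over the other fractions, partners of the 10, and the rows most like Csf1r and Csf1. Others (Kit, Pf4, Mrc1, Evi2a, C1qb, C1qc, Runx1, Dct, Cdh5, Hbb-y and genes at or near 0 or highest outside Neg) were named after their values were seen. An FPKM of exactly 0 can be a failed estimate, so such genes are given as listed at 0. Positions are those of the file, 1-based. Alternatives were pseudocount, filter, scaling, the libraries fitted, the block, and leaving out each library.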

Additional observations from a re-analysis of the deposited data

How the results depend on the processing

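Over 90 results and 1993 alternative values, 1870 kept their side of the threshold, or stayed within 1.5 times for counts. A change of sign between uncalled values within 1 SE was counted as kept. An example is Csf1 in Mc minus Sch, at 0.128 and, with 1 library left out, at -0.034 at the lowest. A change of sign with a call on either side occurred in 0. A filter of 5 FPKM tests fewer rows. Under it the rows above all fractions in Neg fell from 520 to 306, and the members called higher in Neg were 4 against Pc, Epi, Fb, DCSch and Sch and 5 against DC. The called counts of lists were then 2 for blood transcription factors and resident macrophages, 1 for lysosome enzymes and lymphoid genes, 3 for granulocytes, and 0 for chemokine and platelet genes, where both fits used limma and the main counts were 2 and 2. With a pseudocount of 0.1, no member was called lower for Pc minus Epi, Mc minus Sch or DCSch minus Sch (0 each), and 1 was called higher for DCSch minus DC. Fitting only the 4 libraries compared gave 0 lower for Pc minus Epi, 1 lower for DC minus Fb and 1.012 for Csf1 in Fb over Pc (adjusted p = 0.0598). DC minus Fb also gave 1 with no filter and after quantile normalization, which put Csf1 in Fb over Pc at 0.91. The replicate block gave 2 lower for Pc minus Epi and 1 higher for DCSch minus DC, and called Mrc1 in Neg over Mc (adjusted p = 0.0120). For Fcer1g the block added calls of Mc over Fb (adjusted p = 0.0331) and over DCSch (adjusted p = 0.0476). Beside these, it changed no call of the 10 genes between any pair of fractions.

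Leaving out 1 library at a time, the members above all fractions in Neg numbered 6 to 7. Lower counts ran from 0 to 1 for Pc minus Epi, Mc minus Sch and DCSch minus Sch, and from 1 to 2 for DC minus Fb. Higher counts ran from 1 to 2 for Mc minus Sch, 0 to 1 for DCSch minus DC and 1 to 3 for Epi minus Fb. List counts ran from 2 to 8 for resident macrophages, 0 to 1 for the Csf1 axis and 1 to 2 for Langerhans and dendritic cell genes. Csf1 in Fb over Pc ran from 0.89 to 1.13. The causes were not tested.

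Rescaling every library to the same total raised the median of all rows by 0.15 to 0.32 (log2) in DC, Fb, DCSch, Sch and Mc relative to Neg, and it changed no call of a member given in the text. It moved Laptm5 in Sch from 31.1% to 41.2% of Neg. Depth is unknown, so no counting error can be given for low values.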

Other observations

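Several genes known from macrophages or microglia were highest in a skin cell fraction rather than in Neg. They were named after their values were seen. P2ry12, a nucleotide receptor gene used as a microglia marker, measured 9.59 and 12.7 FPKM in Sch, 3.19 and 6.00 in DCSch, and 0.127 and 0.810 in Neg. Tmem119, also used as a microglia marker, measured 58.3 and 24.1 FPKM in Fb and 7.37 and 5.05 in Neg. Sirpa, an inhibitory receptor gene of macrophages, measured 84.9 and 79.2 FPKM in Mc and 13.0 and 11.8 in Neg. Neg was called lower than these fractions for each gene, with limma log2 differences of -3.08 for P2ry12 in Sch (7.16% of rows called lower), -2.44 for Tmem119 in Fb (7.71%) and -2.64 for Sirpa in Mc (5.72%).

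Langerhans cell and antigen presentation genes gave a further split. Cd207, the Langerin gene of mature Langerhans cells, was listed at 0 in both Epi, both Pc and both Neg libraries. H2-Aa, a class II histocompatibility gene, measured 16.7 and 9.93 FPKM in Neg and at most 0.800 elsewhere, and was called above all other fractions, though it entered the test through Neg alone. Cd74, the invariant chain gene of the same pathway, was highest in Pc, at 39.1 and 18.8 FPKM, with 25.1 and 16.2 in Neg and 22.0 and 8.41 in Epi. T cell receptor complex genes gave unlike values: Cd3e was listed at 0 in both Neg libraries, while Cd3g measured 1.87 and 2.98 FPKM there.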
